A study of Mus musculus with 9 samples.

Results

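Immature neutrophils rich in Camp and Ngp were taken from single cells of whole mouse knee joints by 3 limits on raw counts: cells were chosen by their measured levels of 8 genes. S100a8 and S100a9, which encode the subunits of the alarmin calprotectin, together had to reach 12% of a cell's counts (called S100-high below). Camp and Ngp had to reach 3% of the counts. The primary granule genes Mpo, Elane, Prtn3 and Ctsg together had to stay under 5 counts. These limits gave 4009 of 16751 cells (23.9%), of which 3532 came from sick and 477 from healthy mice. They were 71.0% of the 5646 S100-high cells. The limits used measured values, so the levels of these 8 genes describe the choice and carry no test.

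The cells came from 5 sick and 4 healthy female 129/Sve mice, 8 weeks old, profiled with Seq-Well, in which each cell shares a small well with 1 barcoded bead that catches its polyadenylated RNA. Sick mice (numbered 1, 3, 4, 5 and 6) had antigen-induced arthritis: they had been sensitized to methylated bovine serum albumin (mBSA) and then got mBSA by injection into the left knee joint. Healthy mice (numbered 1 to 4) got phosphate-buffered saline there instead, and the labels do not say clearly whether they had been sensitized too. Each mouse is 1 library taken 1 week after the injection, and the mouse is the replicate throughout. A whole joint includes bone, so marrow cells may be among those sampled.

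Neutrophils make their granules in steps. Primary (azurophil) granule proteins such as myeloperoxidase and elastase are made at the promyelocyte stage, secondary (specific) granule proteins such as lactoferrin at the myelocyte and metamyelocyte stages, and tertiary granule and secretory vesicle proteins later. C/EBP-epsilon, encoded by Cebpe, is the transcription factor required for secondary granule genes. Camp encodes cathelicidin, an antimicrobial peptide precursor, Ngp encodes the cystatin-like neutrophilic granule protein, Ltf encodes lactoferrin, an iron-binding protein, Chil3 encodes a chitinase-like protein and Fcnb encodes ficolin B, a pattern-recognition lectin. Camp, Ngp and Ltf all lie on mouse chromosome 9. Their RefSeq promoter windows (GRCm38.p6, 250 bases before to 50 after the gene start) are shown because these 3 genes were read together in the same cells. The windows are chr9:109849407-109849706 (minus strand) for Camp, chr9:110419558-110419857 (plus strand) for Ngp and chr9:111019042-111019341 (plus strand) for Ltf. Capitals mark matches to a C/EBP core, TTNNGNAA, or a PU.1 core, AGGAAG, searched on both strands, so a match on the other strand stands as its reverse complement.
Camp: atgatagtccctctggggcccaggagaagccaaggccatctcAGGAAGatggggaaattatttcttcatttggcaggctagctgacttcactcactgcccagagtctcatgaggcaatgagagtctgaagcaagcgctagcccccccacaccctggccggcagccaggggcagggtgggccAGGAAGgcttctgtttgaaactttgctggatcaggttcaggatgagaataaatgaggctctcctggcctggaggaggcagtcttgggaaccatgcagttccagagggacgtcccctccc
Ngp: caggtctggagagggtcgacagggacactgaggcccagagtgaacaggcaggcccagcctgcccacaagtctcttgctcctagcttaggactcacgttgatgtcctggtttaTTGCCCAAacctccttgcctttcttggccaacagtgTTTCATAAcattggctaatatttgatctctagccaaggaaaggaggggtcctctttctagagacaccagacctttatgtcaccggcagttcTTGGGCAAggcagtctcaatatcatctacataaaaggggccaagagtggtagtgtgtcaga
Ltf: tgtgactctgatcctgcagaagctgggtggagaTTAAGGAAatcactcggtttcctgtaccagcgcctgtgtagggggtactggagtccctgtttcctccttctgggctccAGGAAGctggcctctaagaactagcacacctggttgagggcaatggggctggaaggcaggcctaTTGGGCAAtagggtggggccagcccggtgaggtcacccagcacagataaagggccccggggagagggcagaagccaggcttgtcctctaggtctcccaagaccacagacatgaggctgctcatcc
The Ngp window held 3 C/EBP matches and 0 PU.1 matches, the Ltf window 2 and 1, and the Camp window 0 and 2. Of 32851 RefSeq promoter windows of this kind, 40.7% held the C/EBP core and 35.4% the PU.1 core, so these matches describe the letters only.

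Each sick mouse gave 714, 1111, 300, 756 and 651 such cells (mice 1, 3, 4, 5 and 6), against 275, 79, 62 and 61 in healthy mice 1 to 4. Their summed counts ran from 292440 to 1164227 in sick and from 52146 to 336825 in healthy mice, so healthy mice 2, 3 and 4 give the least precise values. A cell had a median of 827 counts and 326 detected genes. Haemoglobin genes took 5.80% to 11.4% of these cells' counts in sick mice and 6.39% to 19.9% in healthy mice, with the highest share in healthy mouse 3. Mitochondrially encoded genes took 2.46% to 5.26% and 4.21% to 7.90%, and transcripts of ribosomal RNA type 0.828% to 1.70% and 1.42% to 3.14%. Of the cell barcodes, 8 occurred in more than 1 mouse over all cells and 1 among the chosen cells. Replicate mice are separate animals, and the labels give no sequencing batch, so a batch that followed the groups cannot be told apart from them.

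The cells carried the markers that the limits did not use. They held 69.3% of all Ltf counts in the data, 64.7% of Chil3, 57.0% of Cebpe and 44.6% of Fcnb counts, while they held 21.7% of all counts. They also held 62.0% of the counts of Lcn2 (lipocalin 2, a siderophore-binding secondary granule protein), but 30.6% of those of Retnlg, a resistin-like gene of mature neutrophils, and 12.7% of those of Ms4a3, a membrane protein gene of granulocyte and monocyte progenitors. In counts per 1000000 (CPM) of all their counts, Ltf was at 8874 ± 1223 in sick mice and 10402 ± 2037 in healthy mice (SD, n = 5 and 4). In cells that were not S100-high, Ltf was at 920.3 ± 75.6 CPM in sick mice and 977 ± 239 CPM in healthy mice. Cebpe was at 289 ± 65.3 CPM in the chosen cells of sick mice and 217 ± 90.6 CPM in those of healthy mice, against 45.5 ± 21.7 and 42.2 ± 15.2 CPM in cells of sick and healthy mice that were not S100-high. The label immature neutrophil thus rests on 4 marker genes beyond the limits. Of these, Fcnb was not higher than in the granulocyte progenitors described below (log2 difference -0.22). Primary granule RNA was low but present, as the limits allow: 2874 of the 4009 cells had no count of the 4 primary granule genes and 31 had 4. A further 183 cells rich in Camp and Ngp were left out for having 5 or more such counts, 31 of them with exactly 5.

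The limits cut through continuous ranges. The 276 cells just inside the Camp and Ngp limit (3% to 3.5%) had a pooled Ltf level of 7495 CPM with the 8 limit genes left out of the total, and the 279 S100-high cells just outside (2.5% to 3%) had 5395 CPM. Cebpe was at 167 CPM inside and 156 CPM outside. At the S100 limit, 91 cells just inside (12% to 13%) had 3466 CPM of Chil3 and 72 cells just outside (11% to 12%) had 3000 CPM. At the primary granule limit, the 124 cells with 3 or 4 counts had 5701 CPM of Fcnb and the 45 cells with 5 or 6 counts had 7548 CPM.

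Set beside the 1398 other S100-high cells, with under 3% Camp and Ngp and the same primary granule limit, the chosen cells held more RNA of secondary granules and of dividing cells and less of mature neutrophils. This comparison follows the same split as the limits, so its values are a description with no p-value. Counts were summed per mouse and class and the 8 limit genes taken out. CPM is given on the trimmed mean of M-values (TMM) scale, and log2 differences come from edgeR with the mouse as a term. Fcnb was at 3699.8, 2916, 3472, 2813 and 3217 CPM in the chosen cells of sick mice and 2579.6, 3364, 2160.2 and 4808 CPM in those of healthy mice. In the other S100-high cells it was at 585, 479.7, 945, 457 and 593 CPM in sick mice and 469, 381, 856 and 1639 CPM in healthy mice. Each of the 9 mice was higher in its chosen cells, and the lowest chosen value stood above the highest other value, with a log2 difference of 2.38 ± 0.15 (SE). Chil3 was at 6515 ± 878 CPM in the chosen cells and 1272 ± 291 CPM in the others (SD, n = 9 mice; log2 difference 2.39 ± 0.15), Ltf at 17329.9 ± 2857 and 4292 ± 1231 CPM (2.00 ± 0.15), and Cebpe at 466 ± 142 and 114 ± 80.8 CPM (1.93 ± 0.21). All 4 were higher in 9 of 9 mice.

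**Figure D1:**
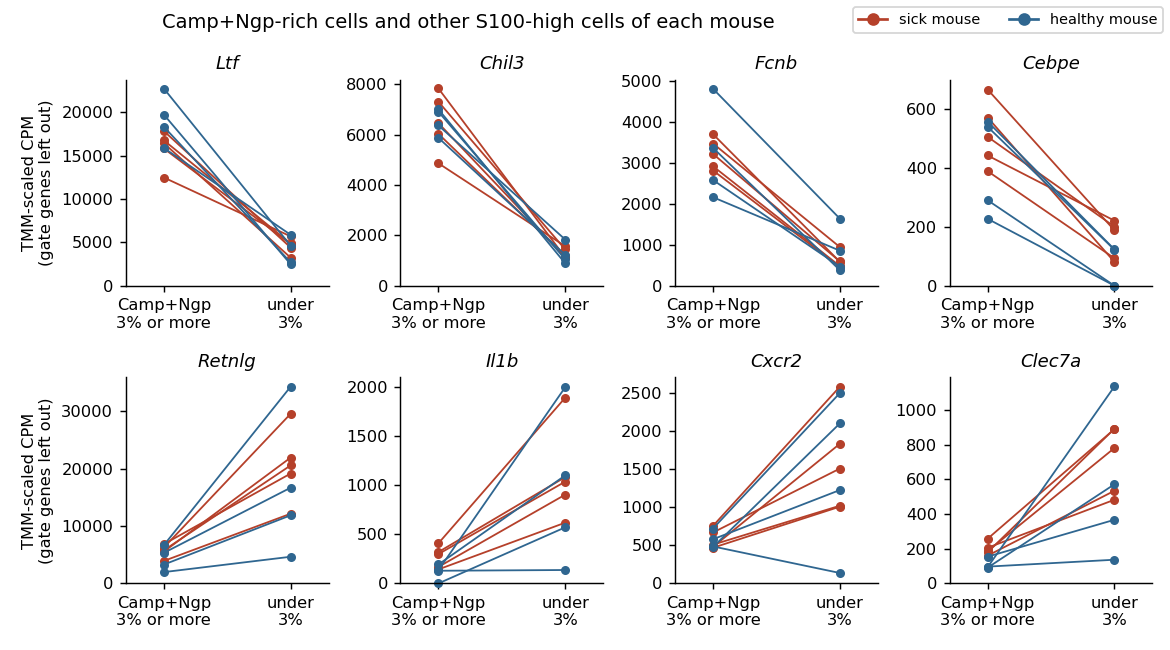
TMM-scaled CPM (the 8 limit genes left out) of 8 genes in the Camp- and Ngp-rich cells (left) and in the other S100-high cells (right) of each mouse, 1 line per mouse, sick in red and healthy in blue. Ltf, Chil3, Fcnb and Cebpe lines run down to the right in 9 of 9 mice, and Retnlg, Il1b and Clec7a lines run up in 9 of 9.

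Of 1860 genes that passed the filter on low counts, 990 (53.2%) had a higher level in the chosen cells and 870 (46.8%) a lower one, 74 (3.98%) were 2-fold or more higher and 90 (4.84%) 2-fold or more lower, and the median log2 difference was 0.03. These counts give direction and size and carry no test. Of 15 secondary granule genes that passed the filter, 14 were higher, 7 of them 2-fold or more, and 1 was lower, with a list median of 1.00. Beside Ltf and Chil3 they included Cybb, the catalytic subunit of the NADPH oxidase (3562 ± 383 against 1438 ± 510.4 CPM), and Anxa1, the anti-inflammatory annexin A1 (6500.3 ± 831 against 2614 ± 957 CPM), each higher in 9 of 9 mice. The 1 lower member was Mmp8, neutrophil collagenase, at -1.07 on the log2 scale, named here after its value was seen. All 17 genes of the G2 and M phases that passed the filter were higher, 5 of them 2-fold or more (median 0.79). Among them Tpx2, a spindle assembly factor, was at 191 ± 47.3 against 59.7 ± 41.5 CPM, and Top2a, which encodes topoisomerase II alpha, at 894 ± 210.5 against 506 ± 292 CPM. All 6 S phase genes were higher too (median 0.39), among them Tyms (thymidylate synthase) and Rrm2 (a ribonucleotide reductase subunit). Other genes with large differences were Inhba, the activin A subunit (340.2 ± 106 against 56.0 ± 58.9 CPM), Zmpste24, a prelamin protease (789 ± 113 against 144 ± 119 CPM), Serpinb1a, an inhibitor of neutrophil serine proteases (1609.6 ± 208 against 567 ± 170.1 CPM), Ffar2, a short-chain fatty acid receptor (2.17 ± 0.34), and Ncam1, a cell adhesion molecule (2.01 ± 0.24). Gm6522, a predicted gene, and Chil4 had the largest differences (3.11 ± 0.33 and 2.98 ± 0.26), but the sequence of Chil4 is close to that of Chil3 and reads may have been split between them.

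Mature neutrophil genes ran the other way: all 17 that passed the filter were lower in the chosen cells, 13 of them 2-fold or more, with a median of -1.45. Retnlg was at 5058 ± 1656 CPM in the chosen cells and 18966 ± 9113 CPM in the others (-1.84 ± 0.14). Il1b, which encodes the cytokine interleukin 1 beta, was at 199.6 ± 123 and 1038 ± 600.4 CPM (-2.28 ± 0.17), and Cxcr2, the chemokine receptor of neutrophil release and recruitment, at 570.5 ± 114 and 1542 ± 791 CPM (-1.45 ± 0.15). Retnlg and Il1b were lower in 9 of 9 mice and Cxcr2 in 8 of 9. Clec7a, the beta-glucan receptor dectin 1, was at 158 ± 56.9 and 643 ± 308 CPM. Acod1, which makes itaconate, was at -2.31 ± 0.22 on the log2 scale, Ccl6, a chemokine, at -2.11 ± 0.17, Jaml, a junctional adhesion molecule, at -2.28 ± 0.22, Cyp4f18, a leukotriene B4 hydroxylase, at -2.12 ± 0.20, and Asprv1, an aspartic protease, at -2.01 ± 0.22. The stefin A genes Gm5483, Stfa2l1 and BC100530 were lower too, but they are near-identical copies and counts may be shared among them. Of 11 tertiary granule and secretory vesicle genes 8 were lower, among them Fpr1, a formyl peptide receptor (-1.45 ± 0.17), and Cd14, a co-receptor for lipopolysaccharide (-0.93 ± 0.15), and 3 were higher, such as Hp, haptoglobin. Among 10 transcription factors 3 were higher, Cebpe alone by 2-fold or more, and 7 were lower, such as Cebpb (-1.41 ± 0.16) and Junb (-0.92 ± 0.14). Of 16 interferon-stimulated genes 15 were lower, 7 of them 2-fold or more, and 1 higher (median -0.65), such as Ifitm1, a transmembrane protein gene (-1.83 ± 0.21), and Slfn1, a Schlafen family gene (-1.23 ± 0.16). Haemoglobin took 12.98% to 25.6% of the counts of the other S100-high cells in sick mice and 8.59% to 24.2% in healthy mice, and all 10 erythroid genes were lower in the chosen cells; the part of such RNA in these differences was not tested. Median counts per cell were 757.5 to 922 in the chosen cells and 576.5 to 785.5 in the others. When every cell was thinned to 500 counts, 841 genes passed the filter, 28 of them 2-fold or more higher and 34 lower. Without sick mouse 5, 47 of 1384 genes were 2-fold or more higher and 57 lower.

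Within the chosen cells, Ltf, Chil3, Lcn2 and Cebpe rose with the Camp and Ngp content. Cells were set in 3 ranges of it (3% to 5%, 5% to 8% and 8% or more of the counts). Only some genes of the secondary granule list were read this way. Ltf was at 9106 ± 1528, 14272 ± 1966 and 20402 ± 3564 CPM from the lowest to the highest range (limit genes left out, SD over 9 mice). Chil3 was at 2651 ± 410.2, 5903 ± 679 and 7623 ± 1414 CPM, and Cebpe at 167 ± 95.7, 415 ± 121 and 612 ± 177 CPM. Each of these 3 genes and Lcn2 stood higher in the highest than in the lowest range in 9 of 9 mice, with pooled ratios of 2.19 for Ltf, 3.12 for Chil3, 3.27 for Cebpe and 2.27 for Lcn2. Fcnb was at 1509.5 ± 474, 3002 ± 834 and 2987 ± 1018 CPM, so its upper 2 ranges overlapped widely. Wfdc21, a whey acidic protein family gene, and Ifitm6, an interferon-induced transmembrane family gene, were also higher in the highest range in 9 of 9 mice. Retnlg was at 6068 ± 2721, 3552 ± 1727 and 2495 ± 1118 CPM, lower in the highest range in 9 of 9 mice (pooled ratio 0.487). Mmp8, which is on the secondary granule list, ran the other way, at 1679 ± 739, 1285 ± 372 and 983 ± 418 CPM (pooled ratio 0.643). It was lower in the highest range in 7 of 9 mice, as was Cxcr2. The proliferation gene Mki67 was at 1075 ± 377, 1293 ± 423 and 762 ± 389.8 CPM, and Top2a at 571 ± 194, 832 ± 158 and 584 ± 172 CPM, both with their highest mean in the middle range and spreads that overlapped. From the lowest to the highest range, Mki67 was lower in 7 of 9 mice (pooled ratio 0.659) and Top2a higher in 6 of 9 (1.12). Camp and Ngp define the ranges, so these values describe how the cells vary and are not tests.

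**Figure D2:**
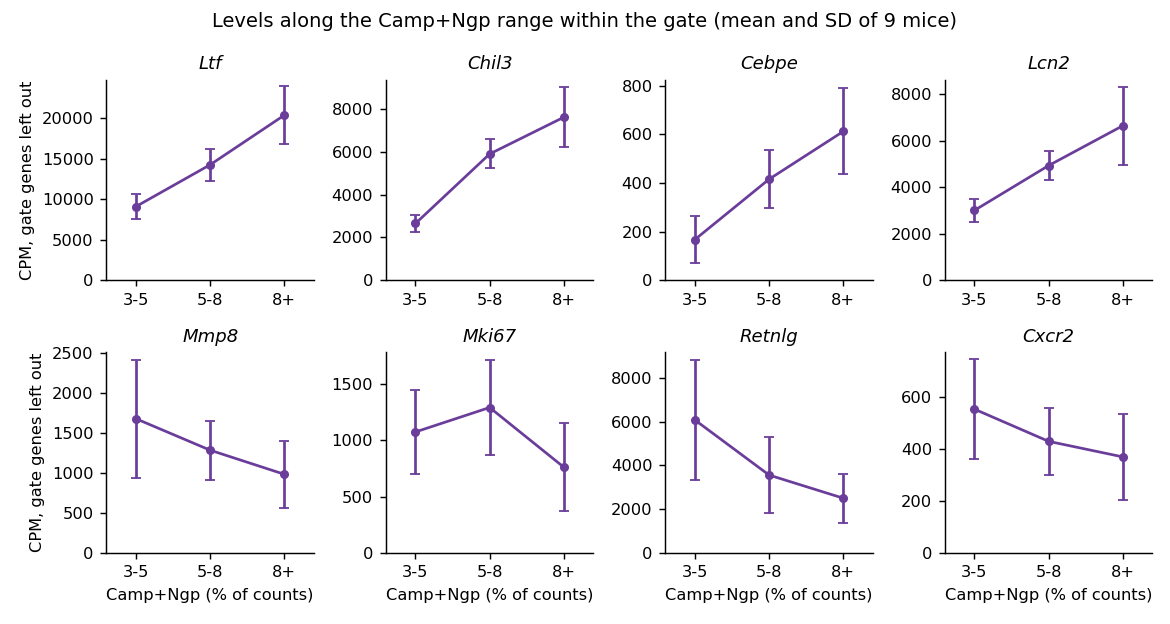
Mean and SD over 9 mice of 8 genes in Camp- and Ngp-rich cells, in CPM with the 8 limit genes left out, against the share of Camp and Ngp in a cell's counts (3-5%, 5-8%, 8% or more). Ltf, Chil3, Cebpe and Lcn2 run upward, Mmp8 and Retnlg downward, and Mki67 is highest in the middle range.

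Beside the granulocyte progenitors, the chosen cells held far more secondary and tertiary granule RNA and less RNA of primary granules, ribosomes and protein folding. Progenitors were the 172 cells with under 12% S100a8 and S100a9 and at least 5 counts and 2% of Mpo, Elane, Prtn3 and Ctsg. Sick mice 1, 3, 4, 5 and 6 and healthy mouse 1 had the required 10 of them, so 6 mice enter, and healthy mice 2, 3 and 4 are dropped. The limits take part in this contrast too, and the values are again a description. Ltf was at 21571, 19128, 14941, 20253 and 20402 CPM in the chosen cells of these sick mice and 27682 CPM in those of healthy mouse 1, against 659.7, 969, 342, 631 and 589.7 CPM in sick and 304 CPM in healthy progenitors. The classes did not overlap, and the log2 difference was 5.04 ± 0.23. Mmp8 was at 2023 ± 392 CPM in the chosen cells and 52.3 ± 51.2 CPM in progenitors (SD, n = 6), Lcn2 at 7199.9 ± 1122 and 339 ± 130.3 CPM, and Chil3 at 8001 ± 1349 and 452 ± 214 CPM. Mmp9, the gelatinase of tertiary granules, was at 585 ± 128 and 13.1 ± 15.2 CPM, and C5ar1, the receptor for complement C5a, at 487 ± 72.0 and 20.4 ± 26.01 CPM. Fcnb had values on both sides: it was at 3781 ± 493 CPM in the chosen cells and 4534 ± 1492 CPM in progenitors, higher in 3 mice and lower in 3 (-0.22 ± 0.16).

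**Figure D3:**
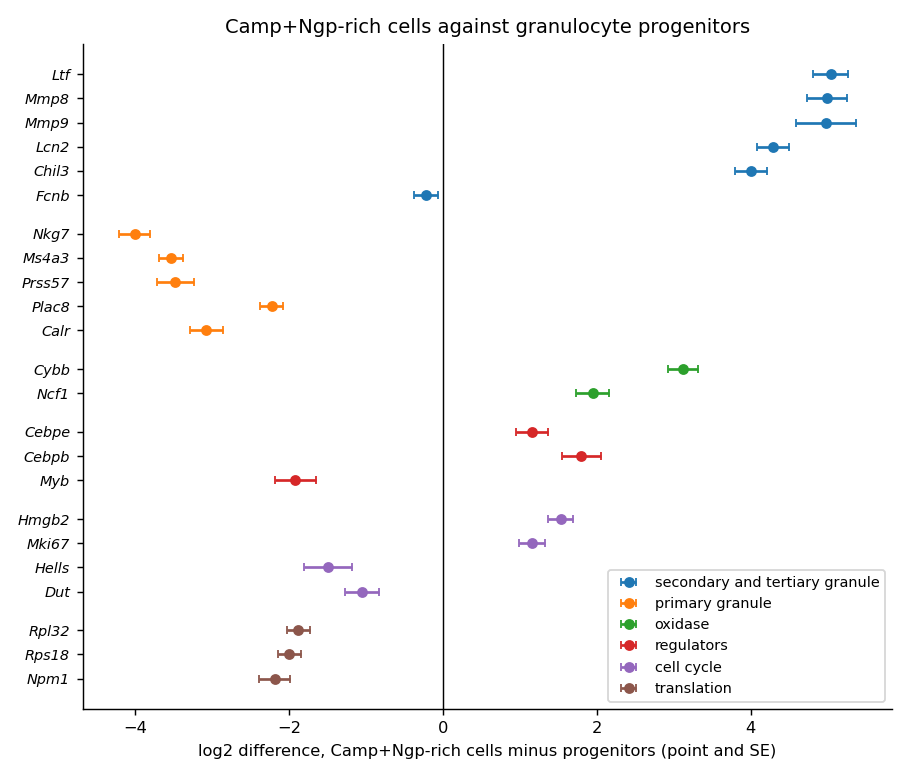
Log2 differences with SE between Camp- and Ngp-rich cells and granulocyte progenitors of the same 6 mice, by gene group; points right of 0 are higher in the Camp- and Ngp-rich cells. Ltf, Mmp8 and Mmp9 lie near 5, Fcnb at -0.22, and Nkg7, Ms4a3 and Prss57 between -4.01 and -3.48.

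Of 2905 genes that passed the filter, 1606 (55.3%) had a higher level in the chosen cells and 1299 (44.7%) a lower one. By 2-fold or more, 713 (24.5%) were higher and 580 (20%) lower, with a median log2 difference of 0.15, again with no test. With DESeq2 size factors the median was 0.41, and 921 were 2-fold or more higher and 447 lower. Of 16 genes on the secondary granule list 15 were higher, 14 of them 2-fold or more, with a list median of 3.62. The 1 lower was the tetraspanin gene Cd63, which counts as a secondary granule gene only by its place on this list. All 7 NADPH oxidase genes were higher. Cybb was at 4085 ± 209 CPM in the chosen cells and 449 ± 169 CPM in progenitors, and Ncf1, a cytosolic subunit, at 899 ± 140.5 and 247 ± 129 CPM. All 10 tertiary granule and secretory vesicle genes were higher, 9 of them 2-fold or more, and 14 of 15 mature neutrophil genes were higher, 13 of them 2-fold or more. Cxcr2 was at 727 ± 156 and 46.8 ± 39.4 CPM and Retnlg at 7081 ± 1330.2 and 932 ± 274 CPM. Srgn, the granule proteoglycan serglycin, was lower, at 1829.9 ± 388 and 6904 ± 1674 CPM. Lyz1 (lysozyme) was at 3073 ± 838 and 84.8 ± 56.7 CPM, with Lyz2 a close copy. Serpinb10, a serpin, was at 156 ± 38.7 CPM in the chosen cells and had no count in the progenitors of the 6 mice.

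Primary granule genes that the limits did not use were lower in 5 of 6 cases, and the 1 higher was Hp, which is also on the tertiary granule and secretory vesicle list. Nkg7, a granule membrane protein gene, was at 69.5 ± 30.6 CPM in the chosen cells and 1174 ± 123 CPM in progenitors. Ms4a3 was at 297 ± 88.7 and 3390.1 ± 518 CPM, and Prss57, a serine protease, at 62.3 ± 14.8 and 702 ± 179 CPM. Cst7, which encodes cystatin F, was at 11.3 ± 7.62 and 432 ± 164 CPM, Gstm1, a glutathione transferase, at 12.3 ± 6.19 and 335 ± 37.8 CPM, and Calr, the chaperone calreticulin, at 88.6 ± 40.3 and 750.1 ± 312 CPM. All 60 ribosomal protein genes that passed the filter were lower, 54 of them 2-fold or more, with a list median of -1.55, and these genes took 1.17% to 1.45% of the chosen cells' counts against 6.02% to 7.63% of progenitors' counts in these mice. All 11 heat shock genes were lower, 9 of them 2-fold or more, such as Hsp90ab1 (869 ± 239.6 against 3343 ± 732 CPM). Myb, a progenitor transcription factor, was at 112 ± 41.5 and 346 ± 114 CPM. The cell cycle lists split: of 13 S phase genes 9 were lower, such as Hells, a chromatin remodeller (-1.49 ± 0.31), and 4 higher, while of 20 G2 and M phase genes 17 were higher, such as Hmgb2, a chromatin protein (2384 ± 351 against 792 ± 217 CPM), and Mki67 (1350.0 ± 333 against 570.1 ± 172 CPM), and 3 lower. Median counts per cell were 757.5 to 922 in the chosen cells and 911.5 to 2104 in progenitors, and haemoglobin genes took 5.80% to 11.4% and 3.59% to 7.02% of the counts. All 10 erythroid genes were higher in the chosen cells; the part of such RNA in these differences was not tested.

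Sick mice had a larger share of Camp- and Ngp-rich cells among all their cells, but a smaller share of them among S100-high cells. They were 34.1%, 28.9%, 21.5%, 33.4% and 25.1% of all cells in sick mice, against 26.2%, 9.01%, 4.43% and 4.99% in healthy mice. The groups overlapped through healthy mouse 1. The means were 28.6% ± 5.38 and 11.1% ± 10.2 (SD, n = 5 and 4), a difference of 17.4 percentage points (exact permutation test over the 126 splits of the mice, two-sided, p = 0.0476, adjusted p = 0.0476 over the 2 shares). Of the S100-high cells they were 70.2%, 70.6%, 71.4%, 73.4% and 66.6% in sick mice, against 74.7%, 76.7%, 73.8% and 83.6% in healthy mice. Here the groups did not overlap: the means were 70.4% ± 2.49 and 77.2% ± 4.41, a difference of -6.75 percentage points (exact permutation p = 0.0159, the smallest the design allows, adjusted p = 0.0317). Both calls depended on the settings. With limits of 2% or 5% for Camp and Ngp, 10% for the S100 genes, or cells of at least 300 genes, neither passed after adjustment. Leaving out any mouse except healthy mouse 1 also ended both calls after adjustment. Over the 9 sets the differences were 15.2 to 22.4 points of all cells and -7.88 to -4.63 points of S100-high cells. For S100-high cells the groups stayed apart in every set, and the unadjusted exact permutation p was 0.0286 to 0.0357. These are the smallest values that sets of this size allow. The groups did overlap in share of S100-high cells when a limit was moved. With an S100 limit of 15%, sick mouse 4 was at 78.3% and healthy mouse 1 at 76.0%. With 10%, sick mouse 5 was at 70.6% and healthy mouse 3 at 66.1%. They also overlapped with Camp and Ngp limits of 2% and 5%, a primary granule limit of 1% and cells of at least 300 genes. Set against healthy mouse 1 alone, the sick mean was 2.41 percentage points higher in share of all cells. Without cells in which haemoglobin or ribosomal RNA-type transcripts were 20% or more of the counts, that difference was 11.2 points and did not pass. The S100 content, which sets who enters the denominator, also differed, with 24.3% to 28.6% of the chosen cells' counts in sick mice and 19.5% to 24.9% in healthy mice; its part in the shares was not tested.

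**Figure D4:**
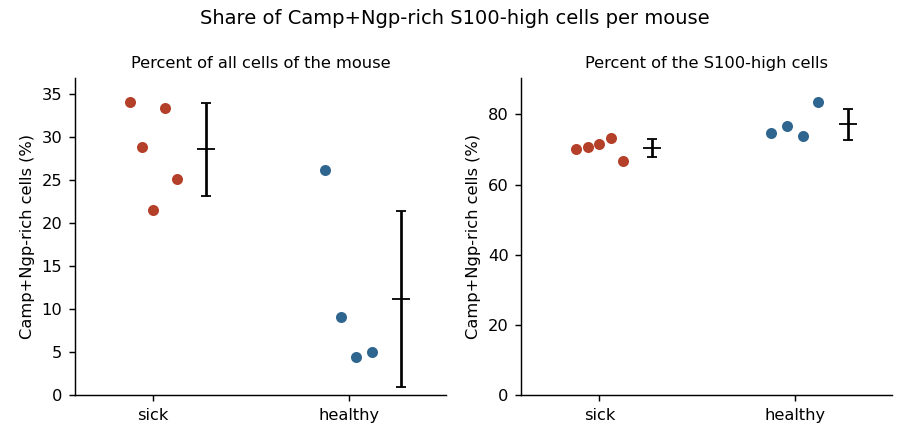
Camp- and Ngp-rich cells per mouse (points) as a percent of all cells (left) and of S100-high cells (right), sick mice in red and healthy mice in blue, with the mean and SD as a bar beside each group. Healthy mouse 1, at 26.2% of all cells, lies within the range of the sick mice, and the 2 groups do not overlap in the right panel.

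Neither the counts nor the genes per chosen cell passed a test between sick and healthy mice. Their median count was 816.5 ± 46.0 in sick and 823.5 ± 71.4 in healthy mice (SD over mice; exact permutation p = 0.857), and the median number of genes was 323 ± 16.7 and 308.75 ± 38.8 (exact permutation p = 0.476). Thinned to 500 counts per cell, they had 220 ± 3.16 and 211.5 ± 10.5 genes (exact permutation p = 0.127). None of the 3 passed, which does not show that the cells were equal.

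The RNA of the chosen cells differed between sick and healthy mice in a small set of genes, and most of those that rose were interferon-stimulated genes, which cells switch on when interferon receptors signal. Of 3696 tested genes, 13 rose (0.352%) and 7 fell (0.189%) in sick mice by edgeR's quasi-likelihood test on counts summed per mouse (Benjamini-Hochberg, false discovery rate 0.05), and the median log2 difference was 0.02. Of 44 listed interferon-stimulated genes 20 could be tested: 8 rose, 0 fell and 12 did not pass. Their median log2 difference was 1.63, also with genes of few healthy counts set to their bound or ratio. Before adjustment, 16 of the 20 had a p under 0.05 in the higher direction and 0 in the lower, against 193 and 151 of all 3696. The summed level of the list was 3217 to 4237 CPM of all counts in sick mice and 1340 to 1783 CPM in healthy mice, with no overlap. A gene could pass the filter on low counts through the sick mice alone, as Ifit1 did with 0 healthy counts. The numbers of tested and risen list genes and the list median therefore depend on that filter. The list, like the other lists, was chosen with interferon results of these mice known, so its direction is not independent evidence.

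Ifi27l2a, an interferon-induced gene of the Ifi27 family, was at 405, 224, 433, 276 and 327 TMM-scaled CPM in sick mice and 22.5, 0, 22.7 and 0 in healthy mice. The groups stood far apart, and the log2 difference was 4.33 ± 0.43 (SE; edgeR quasi-likelihood test, Benjamini-Hochberg adjusted p = 6.96e-07). Ifitm3, a transmembrane protein that restricts virus entry, was at 1000.5, 1101, 720.04, 1096 and 806 CPM in sick mice and 359.6, 282, 272 and 335 CPM in healthy mice. Every sick mouse stood above every healthy mouse, and the difference was 1.56 ± 0.21 (edgeR adjusted p = 6.23e-05). Isg15, a ubiquitin-like modifier, was at 124, 112, 149, 121 and 50.1 CPM in sick mice and 3.21, 13.4, 22.7 and 0 CPM in healthy mice. These healthy values rest on 3 counts, and the ratio of sums, sick over healthy, was 17.1 (95% exact interval 5.82 to 83.5, counting error only; edgeR adjusted p = 0.000668). Rtp4, a receptor transporter, was at 106, 121, 95.8, 109 and 75.9 CPM in sick mice and 6.42, 0, 0 and 18.6 CPM in healthy mice. It too rested on 3 healthy counts, with a ratio of 16.7 (5.68 to 81.4; edgeR adjusted p = 8.89e-05).

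Trim30a, an interferon-induced tripartite motif gene with close copies nearby, was at 107 ± 31.3 CPM in sick and 12.2 ± 9.32 CPM in healthy mice (3.08 ± 0.51, edgeR adjusted p = 0.00117). Xaf1, a gene linked to cell death, was at 95.3 ± 24.8 and 4.01 ± 8.03 CPM (3.22 ± 0.54, edgeR adjusted p = 0.00128). Irf7, the transcription factor that amplifies type I interferon production, was at 86.0 ± 22.5 and 14.3 ± 9.94 CPM (2.60 ± 0.48, edgeR adjusted p = 0.00408). In each of these 3 the lowest sick mouse stood above the highest healthy mouse. Oas1a, an oligoadenylate synthetase with the near-identical copy Oas1g, had 41.0 to 66.1 CPM in sick mice and no count in healthy mice, so it was at least 9.19-fold higher against a floor of 3 counts over the healthy group (edgeR adjusted p = 0.000668). Ifit1, an interferon-induced protein that binds foreign RNA, was likewise at least 6.88-fold higher (edgeR adjusted p = 0.00670). With no healthy count, Oas1a and Ifit1 passed the filter on low counts through the sick mice alone, so their adjusted p-values are not separate support. Eif2ak2, the kinase PKR, had 2 healthy counts and a ratio of 11.01 (3.00 to 91.7; edgeR adjusted p = 0.0328). Ifit1 and Eif2ak2 lie under the 50 CPM set for naming and are named to complete the count. Gm7676, a predicted gene, also rose (2.03 ± 0.45, edgeR adjusted p = 0.0277). Leaving out any 1 mouse ended none of the calls of Ifi27l2a, Ifitm3, Isg15, Rtp4, Trim30a, Xaf1, Irf7 and Oas1a, while Ifit1 was lost without healthy mouse 1, Eif2ak2 without any 1 of the healthy mice and Gm7676 without sick mouse 3 or 5 or healthy mouse 1, 3 or 4. Gm7676 was also lost with an S100 limit of 15%, a Camp and Ngp limit of 5%, cells of at least 300 genes, without the 5% of cells with most counts and with DESeq2 (adjusted p 0.0514 to 0.284). Set against healthy mouse 1 alone, Ifitm3, Trim30a, Xaf1, Irf7, Ifit1, Eif2ak2 and Gm7676 did not pass (edgeR adjusted p 0.0792 to 0.450).

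**Figure D5:**
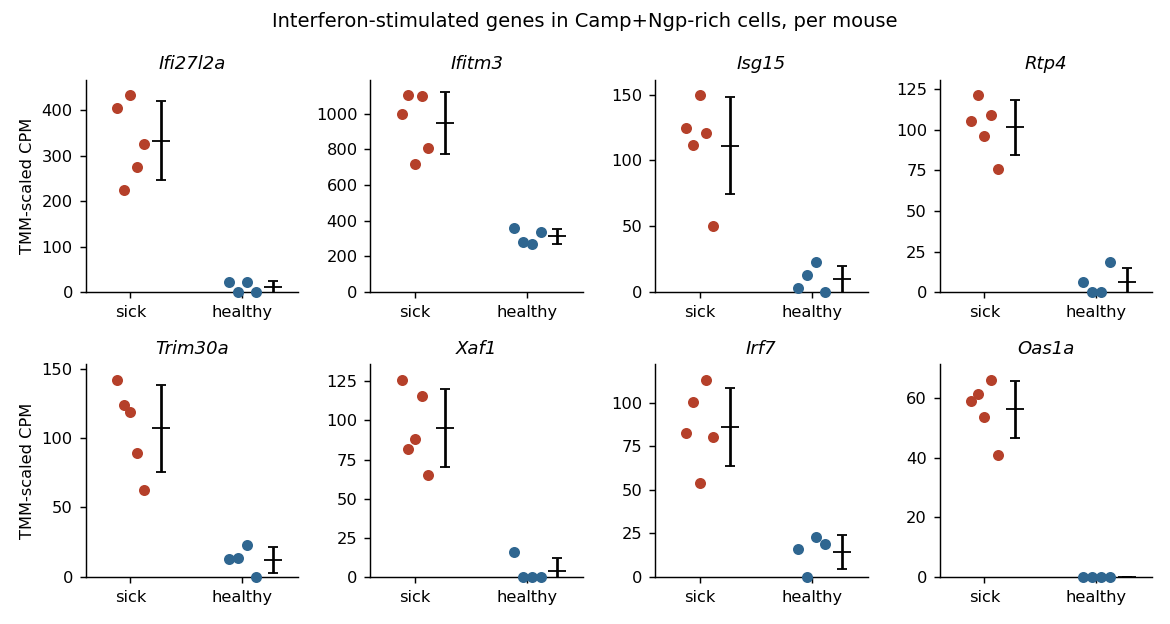
TMM-scaled CPM of 8 interferon-stimulated genes in the Camp- and Ngp-rich cells of each mouse (points), sick in red and healthy in blue, with the mean and SD as a bar. For each gene, every sick point lies above every healthy point, and Oas1a is at 0 in all 4 healthy mice.

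Genes of antigen presentation, which interferon also induces, did not pass, but the calls of some turned on the settings. Of 5 genes of MHC class I none passed, which in so short a list lies near the share over all 3696 tested genes (0.352% rose). B2m, the light chain, was at 636, 767, 674, 1005 and 872 CPM in sick mice and 527, 417, 363 and 447 CPM in healthy mice (0.81 ± 0.20, edgeR adjusted p = 0.0610). H2-D1, a heavy chain, was at 1126 ± 172 and 666 ± 120.1 CPM (0.73 ± 0.19, edgeR adjusted p = 0.0784). Psmb8, an immunoproteasome subunit, was at 146 ± 20.5 and 84.4 ± 41.0 CPM (0.95 ± 0.30, edgeR adjusted p = 0.227). B2m did pass without sick mouse 1 or 4 or healthy mouse 1, with DESeq2 and with no filter on low counts (adjusted p 0.00216 to 0.0439). H2-D1 passed with a Camp and Ngp limit of 5%, without sick mouse 4 or healthy mouse 1, with DESeq2, with no filter and with sums thinned to the smallest library (adjusted p 0.00337 to 0.0365). H2-K1, another heavy chain, and Psmb8 passed with no filter (edgeR adjusted p = 0.0244 and 0.0490).

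The genes that mark these cells did not pass between sick and healthy mice. Of 17 tested secondary granule genes 0 passed, with a median log2 difference of 0.00, and the same was true of 12 tertiary granule and secretory vesicle genes (0.04), 7 NADPH oxidase genes (0.12) and 6 primary granule genes (0.40). Over all 3696 tested genes 0.352% rose and 0.189% fell, so no call in lists this short lies near that share. Ltf was at 10905, 9707, 7664, 10187 and 10333 CPM in sick mice and 14005, 11669, 10771 and 9155 CPM in healthy mice, which overlapped (-0.23 ± 0.17, edgeR adjusted p = 0.723). Cebpe was at 317 ± 65.8 and 241 ± 105 CPM (0.30 ± 0.25, edgeR adjusted p = 0.755), Fcnb at 1983 ± 221 and 1905 ± 649 CPM (0.06 ± 0.19, edgeR adjusted p = 0.939), and Chil3 at 3999.8 ± 727 and 3883 ± 406 CPM (0.04 ± 0.17, edgeR adjusted p = 0.955). Plac8, on the primary granule list (0.84 ± 0.21, edgeR adjusted p = 0.0618), did pass with a Camp and Ngp limit of 2%, without sick mouse 4 or healthy mouse 1, with DESeq2 and with no filter (adjusted p 0.00294 to 0.0433). None of 23 G2 and M phase and 15 S phase genes passed: Mki67 was at 709.9 ± 178 and 1051 ± 334 CPM (-0.51 ± 0.23, edgeR adjusted p = 0.486). Tubb5, a beta tubulin on the G2 and M list, was at 0.63 ± 0.24 (edgeR adjusted p = 0.334), but passed without healthy mouse 1 (1.34, edgeR adjusted p = 0.00740) and with no filter (0.93, edgeR adjusted p = 0.0490). Of 18 mature neutrophil genes none passed (median 0.49), though 8 had a raw p under 0.05 in the higher direction, as did 193 of all 3696. Il1b was at 165 ± 67.7 and 67.8 ± 48.2 CPM (1.27 ± 0.41, edgeR adjusted p = 0.235), and Clec4d, a C-type lectin, at 81.1 ± 29.4 and 24.1 ± 12.3 CPM (1.33 ± 0.45, edgeR adjusted p = 0.277). Il1b passed with a Camp and Ngp limit of 5% (2.05, edgeR adjusted p = 0.0395) and with no filter (1.55, edgeR adjusted p = 0.00152), and Clec4d with no filter (edgeR adjusted p = 0.0318). Among the limit genes, S100a8 was at 197651 ± 9347 CPM in sick and 159131 ± 15665 CPM in healthy mice and Camp at 31832 ± 2362 and 31367 ± 2178 CPM, given without a test.

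Ighg1 and Igkc also rose in the chosen cells, and Prg2 fell. Ighg1, the IgG1 heavy chain constant region, was at 138 to 609 CPM in sick mice and rested on 1 count in healthy mice (ratio 151, 27.05 to 5970; edgeR adjusted p = 1.13e-05). Igkc, the kappa light chain, was at 942 ± 202 and 338 ± 312 CPM (1.70 ± 0.35, edgeR adjusted p = 0.0123), with overlap through healthy mouse 4 at 800.1 CPM. The Igkc call was lost with an S100 limit of 10% (1.22, edgeR adjusted p = 0.136), without the 5% of cells with most counts (1.14, edgeR adjusted p = 0.199) and with sums thinned to the smallest library (1.43, edgeR adjusted p = 0.0752). Reads may be shared among immunoglobulin genes. In cells that were not S100-high, Ighg1 was at 692 ± 516 CPM of all counts in sick and 4.05 ± 2.96 CPM in healthy mice. The 8 plasma cell markers summed to 1034 to 2349 CPM in the chosen cells of sick mice and 303 to 1323 CPM in those of healthy mice, with the defining marker Sdc1 at 0 in sick mouse 3 and in healthy mice 1, 2 and 3. Those sums include Igkc and Ighg1 themselves, at 855 ± 179 and 316 ± 176 CPM of all counts in sick mice, so they are not independent of the calls. Prg2, eosinophil major basic protein, was at 156, 235, 103, 132 and 182 CPM in sick mice and 915, 417, 499 and 74.4 CPM in healthy mice, with overlap (-1.70 ± 0.31, edgeR adjusted p = 0.00408), and its call was lost without healthy mouse 1. It was at 788 ± 357 and 1550.2 ± 1451 CPM in cells that were not S100-high. The 8 eosinophil markers summed to 147 to 308 CPM in sick and 137 to 1143 CPM in healthy mice, with Epx at 0 in sick mouse 4 and in healthy mice 2, 3 and 4. Prg2 itself is part of that sum, at 147 ± 47.4 CPM of all counts in sick and 433 ± 319 CPM in healthy mice. The part of RNA from other cells in these results was not tested. Beyond the chosen cells, Ifi27l2a was at 324 ± 90.6 CPM of all counts in sick and 32.9 ± 21.6 CPM in healthy mice in cells that were not S100-high, and the 7 plasmacytoid dendritic cell markers summed in the chosen cells to 95.5 to 140.2 CPM in sick and 0 to 76.7 CPM in healthy mice. These markers include Bst2, also on the interferon-stimulated list, and Irf8, also on the transcription factor list, so the sum is not particular to dendritic cells.

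Beside Prg2, the genes that fell were mitochondrial RNAs and 2 nuclear genes. Cd55, a brake on complement, was at 36.1, 46.5, 26.8, 32.4 and 47.1 CPM in sick mice and 116, 134, 90.7 and 55.8 CPM in healthy mice, without overlap (-1.44 ± 0.31, edgeR adjusted p = 0.0216). Ssh2, a phosphatase that activates cofilin, was at 54.0 ± 6.94 and 124 ± 47.3 CPM (-1.23 ± 0.28, edgeR adjusted p = 0.0376). The mitochondrially encoded mt-Cytb, cytochrome b, was at 311 ± 71.0 and 804 ± 307 CPM (-1.28 ± 0.24, edgeR adjusted p = 0.00563), and mt-Nd5, mt-Nd2 and the ribosomal RNA mt-Rnr1 fell as well, by 1.15, 1.15 and 0.98 on the log2 scale. Of 6 mitochondrially encoded protein genes 3 fell, 0 rose and 3 did not pass (median -1.10), while 0.189% of all 3696 tested genes fell. Of the 3 that did not pass, mt-Nd4 (-1.04 ± 0.25, edgeR adjusted p = 0.0535) passed in 8 other settings, DESeq2 among them (adjusted p 0.0228 to 0.0499). In cells that were not S100-high mt-Cytb was at 419 ± 63.0 and 858 ± 332 CPM of all counts. Each of the 7 falls lost its call in at least 1 of the 9 sets that left out a mouse. Ssh2, mt-Nd2 and mt-Rnr1 did so in 6 sets each (highest edgeR adjusted p = 0.304, 0.194 and 0.159), and mt-Nd5 in 5 (0.142). Cd55 was lost without sick mouse 5 or healthy mouse 1 or 2, mt-Cytb without healthy mouse 4 and Prg2 without healthy mouse 1. Without sick mouse 4, 24 genes rose and 13 fell, and without healthy mouse 1, 31 and 13. The number that fell was 11 without sick mouse 3, 2 without sick mouse 5, 3 without sick mouse 6, 3 without healthy mouse 2 and 4 without healthy mouse 4. Set against healthy mouse 1 alone, 7 genes rose and 2 fell, assuming that it varies as the sick mice do.

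The response to arthritis was then compared between the chosen cells and the other S100-high cells of the same mice with an interaction term. Of 2791 tested genes 0 differed (0%) by edgeR's quasi-likelihood test with Benjamini-Hochberg adjustment, and DESeq2 called 0. At an unadjusted p under 0.05, 32 had a higher and 179 a lower difference in the chosen cells, around a median over all genes of -0.26, which was -0.07 with DESeq2 size factors. None of 22 interferon-stimulated genes passed, with a list median of 0.08. In other S100-high cells Ifi27l2a was at 608 ± 230.5 CPM of all counts in sick and 71.0 ± 84.2 CPM in healthy mice, and in the chosen cells at 302 ± 78.5 and 9.99 ± 11.6 CPM. Isg15 was at 272 ± 131 CPM in the other S100-high cells of sick mice, with no count in those of healthy mice, and at 101 ± 33.5 and 8.73 ± 8.85 CPM in the chosen cells. With 10 to 87 other S100-high cells per healthy mouse, an interaction had little depth behind it, and without healthy mouse 1 it called 22 genes.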

How the data were processed

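The authors deposited 1 table of raw counts per gene and cell for 9 mice, and all its values are whole numbers. Per the labels' protocols, reads were handled with bcl2fastq, Picard and the Drop-seq Core Computational Protocol 1.0.1, several sequencing rounds of a sample were merged, and STAR was used. The labels' protocols name GRCh38, while the submitters' processing notes name GRCm38 and mm9, so the build behind the counts is unsettled and the table is used by gene symbol only. Strand use in counting is not given in the sources used here. Promoter sequences are RefSeq's (GRCm38.p6), matched by symbol for 3 of 3 genes.

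The members, gene lists and alternatives were chosen with earlier results of these data known. Cells were chosen by shares of raw counts, with no clustering and no doublet caller, so doublets were not removed. Counts were summed per mouse and class, with at least 10 cells required. Genes passed edgeR 4.0.16 filterByExpr, TMM scaling was applied and quasi-likelihood tests were run in R 4.3.3 with Benjamini-Hochberg adjustment over all genes tested at 0.05. DESeq2 1.42.0 was an alternative. The SE is the log2 difference divided by the square root of F. Contrasts that the limits themselves set (against other S100-high cells and against progenitors) are given as log2 differences with counts by direction and by a fold of 2, without p-values or calls, although a test had been planned; there the 0.05 limit served only to pick the names below. Shares and per-cell medians were compared by exact permutation of mice, two-sided, with scipy 1.17.1. Intervals of count ratios are exact at 95% and cover counting error only, and the floor for a group with no count was 3 counts.

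The fitting script was tested on simulated data with known changes. Genes were named by rule: the 10 largest rises and falls past 0.05 with a mean of 50 CPM or more in the higher group (and, for sick against healthy, no overlap of the groups), the 6 markers, the limit genes as description, and up to 4 members per list by smallest p. Ifit1, Eif2ak2, mt-Rnr1, Mmp8 and Cd63 were named after their values were seen where the rule did not name them. Azu1, Itgam, Cstdc4, mt-Nd3, mt-Nd4l, mt-Atp8 and Ahsp were listed but are not analysed here.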

Additional observations from a re-analysis of the deposited data

Results flagged for a closer look

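Of 342 groups of 4 to 6 mice checked for a single mouse far from the rest, 17 were picked out, and chance alone picks about 1 in 20. In the chosen cells, on the TMM scale over all genes, healthy mouse 1 stood apart for Xaf1 (16.1 CPM), Eif2ak2 (6.42 CPM) and Ighg1 (3.21 CPM). The other healthy mice were at 0 for each. Those values rest on few healthy counts: 5 for Xaf1, 2 for Eif2ak2 and 1 for Ighg1. Healthy mouse 1 also had 336825 summed counts, against 52146 to 78230 in the other healthy mice, so a 0 there has less depth behind it. Healthy mouse 4 stood apart for Igkc (800.1 CPM against 119 to 229 CPM). On the scale without the limit genes, healthy mouse 1 stood apart for Acod1 (36.5 CPM against 0), healthy mouse 3 for Clec7a (154 CPM against 90.9 to 96.8 CPM) and healthy mouse 4 for Mmp8 (1129 CPM against 2044 to 2159 CPM). In the fit against progenitors, sick mouse 6 stood apart for Hells in the chosen cells (156 CPM against 74.4 to 88.0 CPM).

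In the other S100-high cells, healthy mouse 4 stood apart for Inhba and Gm6522 (137 CPM each, against 0). It had 10 such cells with 10164 summed counts, so both values rest on very few counts. Sick mouse 4 stood apart for Fcnb (945 CPM against 457 to 593 CPM), and sick mouse 5 for Jaml (513 CPM against 221 to 280.3 CPM) and Rsad2, an antiviral enzyme (792 CPM against 390 to 462 CPM). In progenitors, sick mouse 4, also with 10 cells, stood apart for Srgn (4031 CPM against 6785 to 7548 CPM). Sick mouse 1 did so for the transcription factor Klf7 (15.7 CPM against 0) and sick mouse 5 for the glucose transporter Slc2a3 (30.04 CPM against 0 to 8.58 CPM). Sick mouse 6 did so for the cytokine receptor chain Il18rap (34.7 CPM against 0). Progenitor sums were 82799 counts in sick mouse 1, 40666 in sick mouse 5 and 37244 in sick mouse 6, so these values too rest on very few counts.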

How the results depend on the processing

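Few healthy cells and shallow libraries (about 827 counts per cell) limit precision. The difference in share of S100-high cells was -4.73 points with an S100 limit of 10%, -4.20 and -1.74 with Camp and Ngp limits of 2% and 5% and -5.85 in cells of at least 300 genes, and the difference in share of all cells was 17.3, 20.3, 12.3 and 13.6. Leaving out 1 mouse gave -7.88 to -4.63 and 15.2 to 22.4. In cells with under 5% haemoglobin and ribosomal RNA-type counts, which leave healthy mice 2, 3 and 4 with 1 or 2 chosen cells each, they were 10.3 and 21.3. Without haemoglobin-rich cells the share of all cells differed by 11.2 points, and against healthy mouse 1 alone by 2.41.

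The difference in counts per cell was 0.2 in cells of at least 300 genes, 74.2 under 5% haemoglobin and -105.5 against healthy mouse 1 alone (-28.2 to 25.8 leaving out 1 mouse). In genes per cell it was -1.55 at 5% Camp and Ngp and -25.1 against healthy mouse 1 alone (-1.77 to 27.2), and in genes at 500 counts -19.7 under 5% haemoglobin (3.67 to 12).

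Genes that fell in sick mice numbered 11 and 3 with S100 limits of 10% and 15%, 3 at 5% Camp and Ngp, 3 in cells of at least 300 genes, 4 under 5% haemoglobin, 2 against healthy mouse 1 alone and 13 with DESeq2. Those that rose numbered 2 under 5% haemoglobin, 7 against healthy mouse 1 alone, 86 with no filter on low counts and 3 with sums thinned to the smallest library. Leaving out 1 mouse gave 11 to 31 rises and 2 to 13 falls. Against other S100-high cells, where no test applies, genes 2-fold or more higher and lower numbered 166 and 192 at 15% S100, 124 and 163 without healthy mice 2, 3 and 4, 4345 and 2208 with no filter, 124 and 163 with 30 cells per mouse, 119 and 179 in sick mice alone, 34 and 28 in healthy mice alone and 28 and 34 after thinning cells (47 to 86 and 57 to 123 leaving out 1 mouse). There were 32 higher at 5% Camp and Ngp and 154 lower with 20 cells per mouse. Against progenitors they numbered 8395 and 3204 with no filter, 1313 and 903 with 20 and 1379 and 1271 with 30 cells per mouse, and 1195 were higher without the deepest 5% of cells (619 to 869 and 505 to 643 leaving out 1 mouse). The interaction called 3 and 2 genes at 10% and 15% S100, 4 and 8 at 2% and 5% Camp and Ngp, 1 with a primary granule limit of 1%, 4 in cells of at least 300 genes, 2 without the deepest 5% of cells, 2 against healthy mouse 1 alone, 9 with no filter, and 1 and 2 with 20 and 30 cells per mouse (0 to 22 leaving out 1 mouse).

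Between sick and healthy mice, the genes that turned direction had not passed in the first place. Mki67 was at 0.72, Cenpf at 0.48 and Tubb5 at -0.087 under 5% haemoglobin. Chil3 was at -0.043 without sick mouse 5, -0.0077 without sick mouse 6 and -0.086 against healthy mouse 1 alone, where Cebpe was at -0.086 and Mki67 at 0.36. Fcnb was at -0.020 without healthy mouse 3 and -0.070 with thinned sums (leaving out 1 mouse gave -0.043 to 0.19 for Chil3 and -0.020 to 0.32 for Fcnb), and Ltf at 0.12 with no filter. Against progenitors Fcnb was at 0.11 without the deepest 5% of cells, 0.28 under 5% haemoglobin, 0.045 without sick mouse 6, 0.40 with no filter and 0.0038 and 0.24 with 20 and 30 cells per mouse (-0.31 to 0.045 leaving out 1 mouse). The cause was not tested.

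The correlations of same-numbered mice were 0.027, -0.017 and 0.042. Low values cannot show whether the numbers pair the mice, as healthy sums went down to 52146 counts. With the replicate block on the 3 shared numbers, 9 genes rose and 0 fell, the shares differed by -6.61 and 16.3 points (exact permutation p = 0.25 for both, the smallest possible), and Chil3 was at -0.10.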
